A study of Mus musculus with 8 samples.

Results

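Translational efficiency, the amount of ribosome footprints on an mRNA relative to the amount of that mRNA, was compared between mouse embryonic stem cells with and without knockdown of eIF4A2. The measure of change was the difference, per gene, between the log2 ratio of knockdown over control in footprints and the same ratio in total RNA, and is called the efficiency change below. It was taken for every gene listed under the same identifier in the footprint and the total RNA table and with a mean of at least 10 CPM (reads scaled to a common library size) over the 4 libraries of each table. That left 8019 of the 12416 genes present in both tables (64.6%), of which 7909 matched a protein-coding gene. The rule used levels only, and no fold change.

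The cells were J1, a mouse embryonic stem cell line of strain 129S4/SvJae, kept without feeder cells on gelatin in serum with LIF. They received either control shRNAs, named shNT and shGFP, or the eIF4A2 shRNAs sheIF4A2-2 and sheIF4A2-3, were kept in puromycin at 1 μg/mL for 3 days and were taken at day 4.5. All cells, controls included, thus carried an shRNA and were drug-selected, and all were given cycloheximide at 0.1 mg/mL for 1 min before lysis, which holds ribosomes in place. The design has 4 groups of 2 libraries: knockdown and control for footprints (RPF), and the same pair for total RNA. The labels call the samples of a group biological replicates, but the sources used here do not give the shRNA of each one, nor is it stated whether footprints and RNA of the same number came from the same culture.

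eIF4A is an RNA helicase that, with the cap-binding protein eIF4E and the scaffold eIF4G, opens structure in the 5′ leader of an mRNA so that the small ribosomal subunit can load and scan. Leaders rich in GC or in GGC repeats are known for a strong need for this helicase. eIF4A1 is the major form in that complex. eIF4A2 is a close paralog that has also been linked to the CCR4-NOT deadenylase complex and to repression by microRNAs, and eIF4A3 belongs to the exon junction complex. A gene whose footprints move with its RNA has an efficiency change of 0. A gene whose footprints move more, less or the other way does not.

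Depth was 7947827 to 10682677 reads in the footprint libraries and 8564582 to 12840349 in the total RNA libraries, so that 1 read was worth 0.0751 to 0.114 CPM. All 8 embryonic stem cell markers were present in both tables. Their summed share of the footprint columns was 0.54% and 0.48% in the knockdown against 0.70% and 0.63% in the control. In total RNA it was 0.46% and 0.46% against 0.59% and 0.64%. Of 10 markers of differentiated lineages 6 were listed for footprints, at a summed 36.3 to 49.2 CPM. For total RNA 4 were listed, at 26.5 to 32.0 CPM. Of 8 fibroblast markers 4 were listed, with a summed level of 11.1 to 25.5 CPM per library. In bulk samples, fewer cells of a type and less RNA per cell cannot be told apart. The 2 libraries of the total RNA control differed from each other more than those of any other group, and several gene groups stood apart in a control 2 library. RPF knockdown 1 also stood apart. The log2 footprint to RNA ratio had an SD over protein-coding genes of 0.56 to 0.57 with it, against 0.71 to 0.76 in other pairings within a condition. Values without single libraries are therefore given for many genes and lists.

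Eif4a2 itself had 311 and 153 CPM of footprints in the knockdown against 395 and 409 CPM in the control. Its total RNA was 583 and 617 CPM in the knockdown against 739 and 969 CPM in the control. Both measures were thus lower in each knockdown library than in each control library, and the knockdown was partial in both. The efficiency change of the remaining Eif4a2 mRNA was -0.38 ± 0.40 (SE, 2 libraries per group), with library combinations on both sides of 0. It was -0.89 without RPF knockdown 1 and 0.13 without RPF knockdown 2.

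Changes in footprints went with changes in RNA across genes. Across the 8019 genes the change in footprints and the change in RNA had a Pearson r of 0.69, a description over genes that share the same libraries. In 968 genes both knockdown libraries lay above both control libraries in each measure, and in 1077 genes both lay below. The opposite pattern was uncommon, with footprints higher and RNA lower in 54 genes and footprints lower and RNA higher in 59. Counting each measure by itself, footprints lay above control in 1680 genes and below it in 2012. RNA lay above control in 1883 genes and below it in 1910. The scatter of footprint change against RNA change shows most genes along the diagonal.

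**Figure D1:**
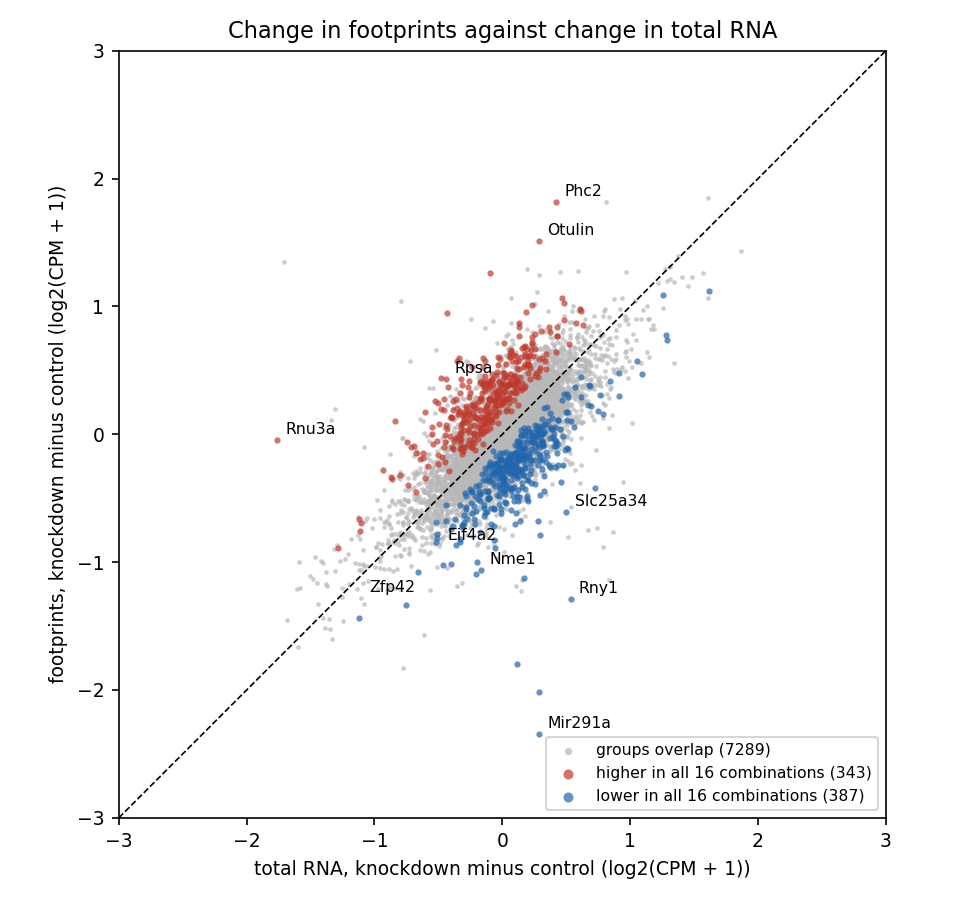
Change in footprints (vertical) against change in total RNA (horizontal), knockdown minus control on the log2(CPM + 1) scale, 1 point per gene. The dashed line marks equal change, red and blue mark the 343 and 387 genes whose efficiency change was above or below 0 in all 16 library combinations, and grey marks the other genes.

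The efficiency changes were small. Their median was -0.02, their SD over genes 0.26, and 94.96% lay within 0.5 of 0 on the log2 scale. The 1st and 99th percentiles were -0.66 and 0.62. Only 14 genes lay above 1 and 21 below -1. The largest value, 3.06 for the WD-repeat gene Wdr95, came from a gene whose RNA was 63.99 CPM in control 2 and between 4.34 and 5.05 CPM in the other 3 RNA libraries, and whose footprints were 63.3 CPM in knockdown 1 and between 9.51 and 14.3 CPM in the other 3 footprint libraries. Without total RNA control 2 its value was 1.25.

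Replicate libraries differed from each other by as much. The SD over genes of the log2 difference between the 2 libraries of a group was 0.41 for knockdown footprints, 0.29 for control footprints, 0.13 for knockdown RNA and 0.45 for control RNA. Combined in the contrast as if independent between groups, library differences of that size would give an SD of 0.34, against the 0.26 observed. Deviations of same-numbered libraries were correlated between groups, with r from -0.32 to 0.21. The 0.34 is therefore no exact measure of library error. At the median SE of 0.27, a gene needs an efficiency change of 0.61 to reach an unadjusted p of 0.05.

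**Figure D2:**
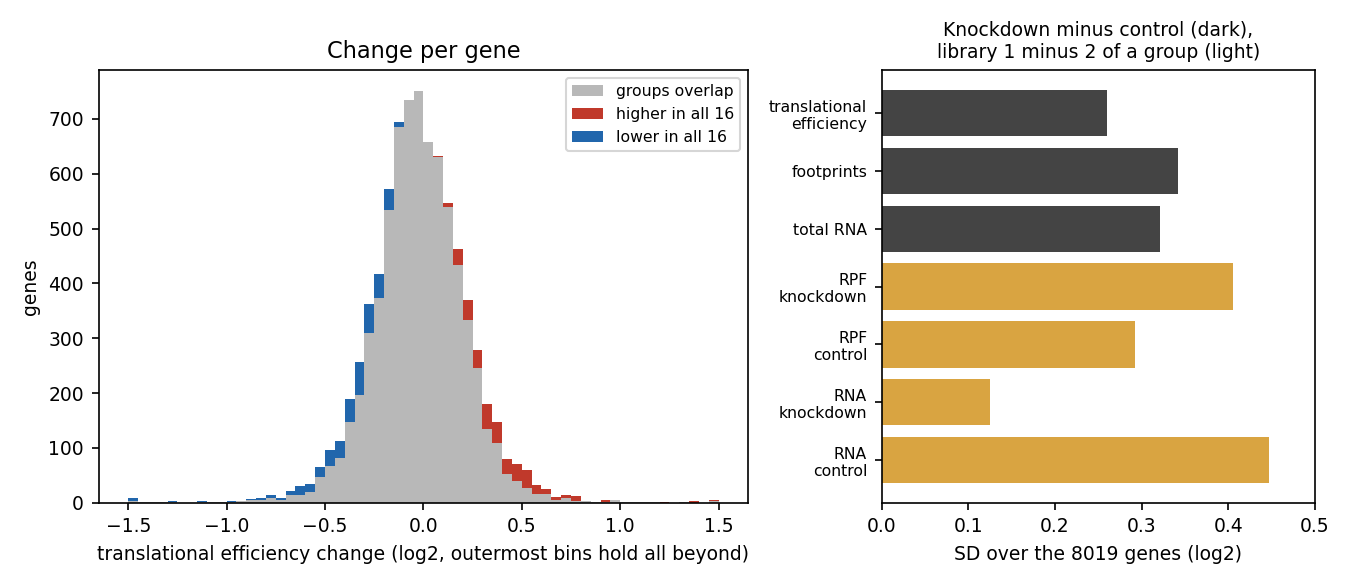
Left, number of genes by efficiency change (log2), stacked by whether the groups overlapped over the 16 library combinations. Right, SD over genes of the changes between knockdown and control (dark bars) and of the difference between the 2 libraries of each group (light bars), where the bar of 0.26 for the efficiency change is shorter than the bars of 3 of the 4 groups.

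No gene passed the test of the efficiency change. In limma's interaction test over the 12358 genes fitted, 0 were called (0%), the smallest Benjamini-Hochberg adjusted p was 1.00, and every gene named below has that adjusted p. At an unadjusted p under 0.05 there were 192 genes in all and 77 among the 8019 (0.96%), 39 with a positive and 38 with a negative change. edgeR's quasi-likelihood test and DESeq2, both run without RPF control 2, called 0 genes too, while edgeR's more liberal likelihood ratio test on the same libraries called 3 (Dnajc1, Cnr1 and Mir291a). Leaving out RPF control 2 left 1 control footprint library, so these count tests had no replicate in that group. All values below are therefore descriptions of these 8 libraries. As a measure of agreement between libraries without a test, a gene was counted as higher when its efficiency change was positive for each of the 16 ways to take 1 library from each group, and as lower when it was negative for each. This held for 343 genes as higher (4.28%) and 387 as lower (4.83%), the background for the counts in the gene groups below. The balance turned with the scaling of the columns, to 484 higher and 269 lower with columns rescaled to the same total and to 428 and 313 with columns centred on the members' median. The median change was 0.37 in the former (range 0.07 to 1.72) and -0.34 in the latter (-2.63 to -0.06). Footprints contributed the larger part of the difference in 212 of the 343 and in 245 of the 387.

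Among the eIF4A helicases and the partners of eIF4F, 16 of 19 genes had a negative efficiency change, with a median of -0.12 against -0.02 for all genes. Of these 19, 0 were higher and 1 was lower in all library combinations, near the background of 4.28% and 4.83%. Eif4a1 had 2913 and 4202 CPM of footprints in the knockdown against 4601 and 4486 in the control, with RNA at 2588 and 2556 against 2738 and 3604 CPM. Footprints and RNA of Eif4a1 were both lower in each knockdown library, and its efficiency change was -0.09 ± 0.34. Eif4a3 had -0.12 ± 0.26. The gene that was lower in all combinations was Eif4ebp1 (-0.40 ± 0.23), which encodes the eIF4E-binding repressor 4E-BP1, with footprints of 162 and 124 CPM against 217 and 247. Its RNA was 142 and 136 CPM in the knockdown against 174 and 169 in the control, so the difference lay more in footprints than in RNA. Dhx9, a helicase that opens structured RNA, had -0.27 ± 0.27 with overlapping libraries. Eif4ebp1 had -0.21 without RPF knockdown 2, and Dhx9 had -0.03 without RPF knockdown 1. The list's median was -0.01 without RPF knockdown 1 and -0.20 without RPF knockdown 2.

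Of 30 other initiation factors, 13 had positive and 17 negative changes (median -0.03). In all combinations 2 were higher (6.67%) and 1 was lower (3.33%), near the background of 4.28% and 4.83%. Eif1b, a close relative of the start-codon scanning factor eIF1, was among the higher ones. Its footprints were 19.9 and 21.1 CPM in the knockdown against 14.4 and 12.1 CPM in the control, while its RNA was 15.0 and 15.0 CPM against 17.1 and 16.4 CPM. The footprint groups did not overlap, nor did the RNA groups, which lay in the opposite order, and the efficiency change was 0.75 ± 0.26 (1.68-fold) with a range of 0.56 to 0.94 over the 16 combinations. Between 122 and 202 reads stood behind each of these values. Eif1ad, an eIF1A-domain protein, was the one that was lower (-0.59 ± 0.28). Eif5b, the factor that joins the ribosomal subunits, had -0.51 ± 0.30 with overlapping libraries. Eif1ad had -0.36 without RPF knockdown 2, and Eif5b had -0.25 without total RNA control 2. The median of these 30 genes changed sign with single libraries, at 0.15 without RPF knockdown 1 and -0.21 without RPF knockdown 2, and at 0.14 and -0.17 without total RNA control 1 and 2.

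**Figure D3:**
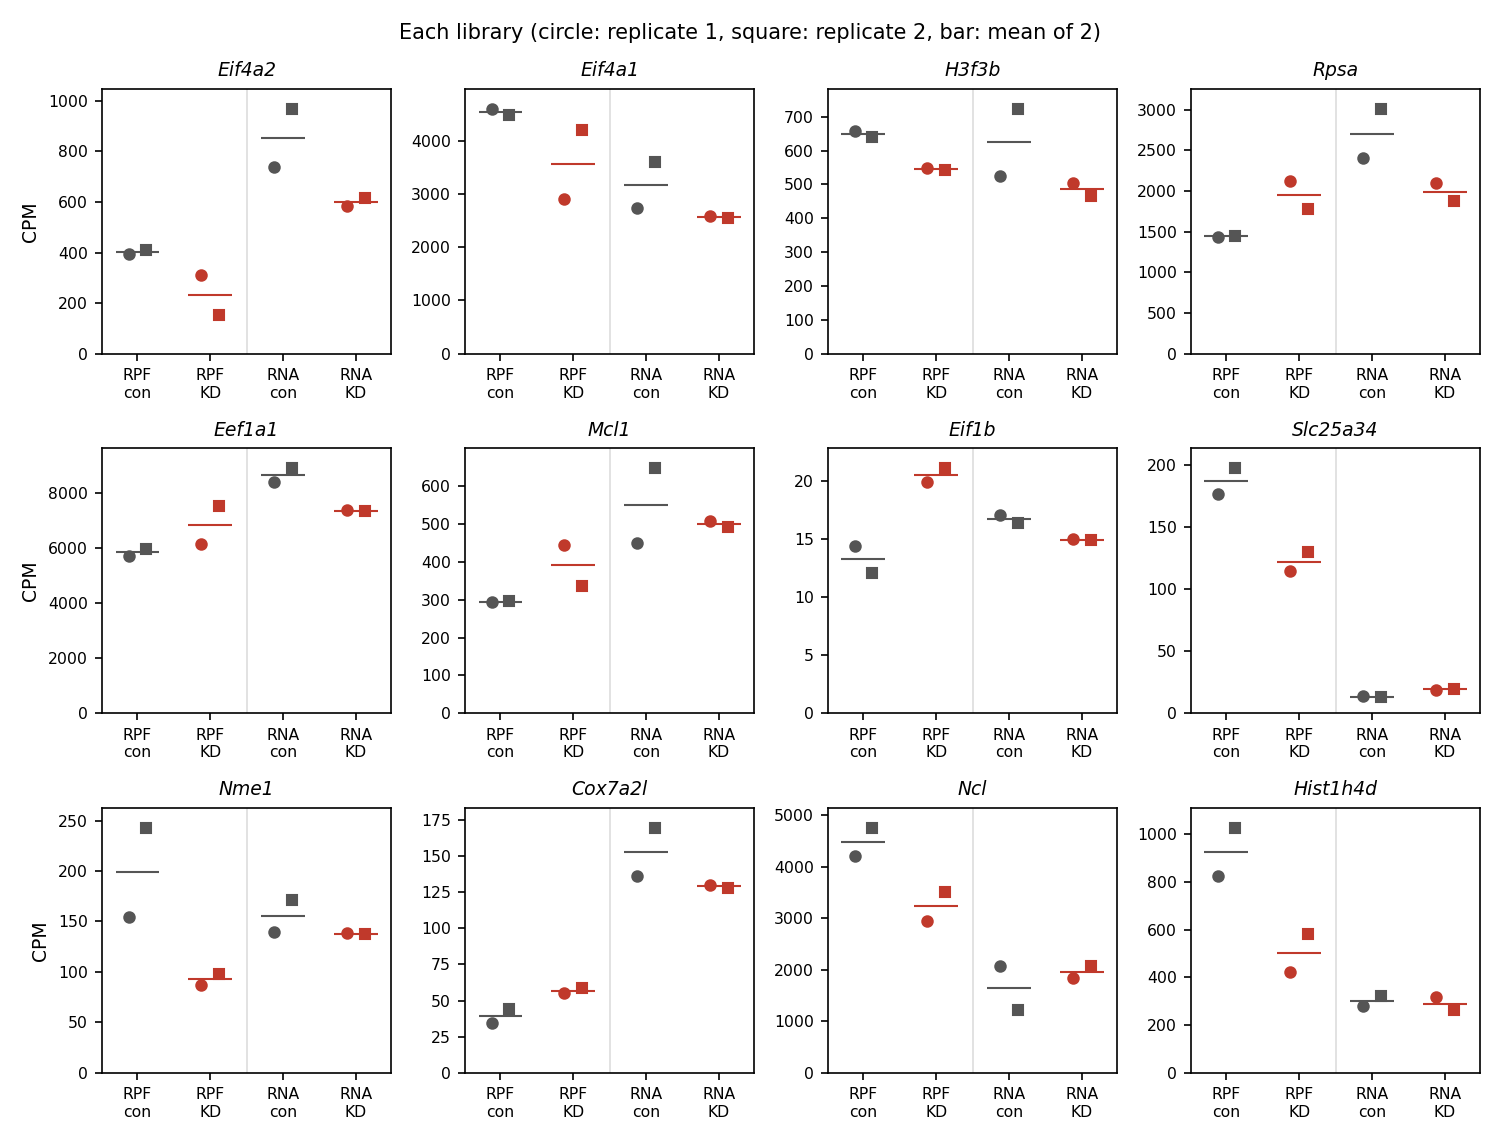
Levels in CPM of 12 genes in each library of control (con, grey) and knockdown (KD, red), footprints left and total RNA right in each panel. Eif1b and Rpsa had footprints above control and RNA below it in both knockdown libraries, Slc25a34 the reverse, and Eif4a2 was below control in both measures.

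The mRNAs of cytoplasmic ribosomal proteins mostly had positive values. Of 79 members 59 were above 0, with a median of 0.17, and 13 were higher in all combinations (16.5%, against 4.28% of all genes) and 0 were lower. The members' RNA was lower in the knockdown, with a median change of -0.22, while their footprints had a median change of -0.03. Rpsa, a protein of the small subunit, had 2124 and 1780 CPM of footprints in the knockdown against 1433 and 1453 in the control. Its RNA went the other way, at 2094 and 1882 CPM against 2401 and 3013. Neither pair of groups overlapped, and the efficiency change was 0.87 ± 0.28 (1.82-fold). Rps2, another protein of the small subunit, had 930 and 721 CPM of footprints against 622 and 642, and 1769 and 1622 CPM of RNA against 2018 and 2556. Its change was 0.80 ± 0.28. Rplp2, a protein of the stalk, had 0.51 ± 0.23.

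Rps26 was among the 20 negative members (-0.24 ± 0.35). The group's value moved with 1 library. In total RNA control 2 the members stood a median 0.31 above their mean over the RNA libraries, against -0.07 in control 1 and -0.07 and -0.16 in the knockdown. Without that library the group's median was 0.01, and without total RNA control 1 it was 0.39. Rpsa and Rps2 kept 0.70 and 0.62 without total RNA control 2. The part of this library in the group's value was not tested beyond these figures. Ribosomal protein genes have many processed pseudogene copies, so the assignment of reads among them is uncertain.

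Ribosomal protein mRNAs and those of several elongation factors begin with a C and a run of pyrimidines, the 5′ TOP motif, through which their translation is tuned by mTORC1 and LARP1. Of 22 TOP mRNAs outside the ribosomal proteins, 14 were above 0 (median 0.08). In all combinations 4 were higher (18.2%, against 4.28% of all genes) and 0 lower. Those 4 were 3 elongation factor genes and a subunit of eIF3. Eef1a1, which brings aminoacyl-tRNA to the ribosome, had 6152 and 7537 CPM of footprints in the knockdown against 5715 and 5958 in the control, and 7368 and 7344 CPM of RNA against 8402 and 8895. Both pairs of groups were apart, in opposite directions, with an efficiency change of 0.46 ± 0.33. Eef1g had 0.51 ± 0.26, the translocase Eef2 0.34 and Eif3h 0.30. At the other end, the histone chaperone Nap1l1 had -0.40 ± 0.28 with overlapping libraries. Without RPF knockdown 1 Nap1l1 had -0.15, and without RPF knockdown 2 Eif3h had 0.13. This list's median was 0.00 without total RNA control 2, 0.29 without RPF knockdown 1 and -0.09 without RPF knockdown 2.

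The TOP motif could be looked for only at RefSeq's annotated starts, which need not be the start used in these cells. Of the 17 genes of both lists that were apart in all combinations, 12 matched a RefSeq start (GRCm38.p6), and 4 of these begin with C and 4 or more pyrimidines. Their first 20 bases are shown because they carry the motif, with the opening pyrimidine run in capitals, from chr7:118116128-118116147 (minus strand), chr7:141447651-141447670 (plus), chr17:27635225-27635244 (minus) and chr16:33056482-33056501 (plus) in that order.
Rps15a: CTTCCCTCgccggtgagtga
Rplp2: CTTTCgccgccggacgccgc
Rps10: CTTCCTTTCCagcctccgcc
Rpl35a: CTCTTTCCgccatcttggcg
These 4 had efficiency changes of 0.30, 0.51, 0.51 and 0.42. The last of them was 0.22 without total RNA control 2. Of 57 ribosomal protein genes with a matched start, the 14 with such a start had a median change of 0.27 and the 43 without it 0.17, and 4 of the former and 6 of the latter were higher in all combinations. Over all matched protein-coding genes, the 201 with such a start (3.12%, against 3.01% of all 27025 genes in the RefSeq table) had a median of 0.01 and the 6244 without it -0.03.

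Factors that build ribosomes lay on the other side. Of 43 ribosome biogenesis genes 34 were below 0, with a median of -0.11, and 4 were lower in all combinations (9.30%, against 4.83%) and 1 higher. Nucleolin (Ncl), an abundant nucleolar protein of rRNA transcription and processing, had 2953 and 3508 CPM of footprints in the knockdown against 4208 and 4756 in the control. Its RNA was 1831 and 2067 CPM in the knockdown against 2065 and 1221 CPM in the control, with control 2 far below the other 3 libraries. The efficiency change was -0.77 ± 0.37, and -0.39 without total RNA control 2. The helicase Ddx47 had -0.40 ± 0.23, and -0.26 without RPF knockdown 1. The exception was Nop2, an rRNA methyltransferase, whose footprints were 893 and 845 CPM against 658 and 494, with RNA at 284 and 278 CPM against 251 and 329. Its footprint groups were apart and its RNA groups overlapped, and the change was 0.64 ± 0.27. The list's median was 0.04 without RPF knockdown 1 and -0.26 without RPF knockdown 2.

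**Figure D4:**
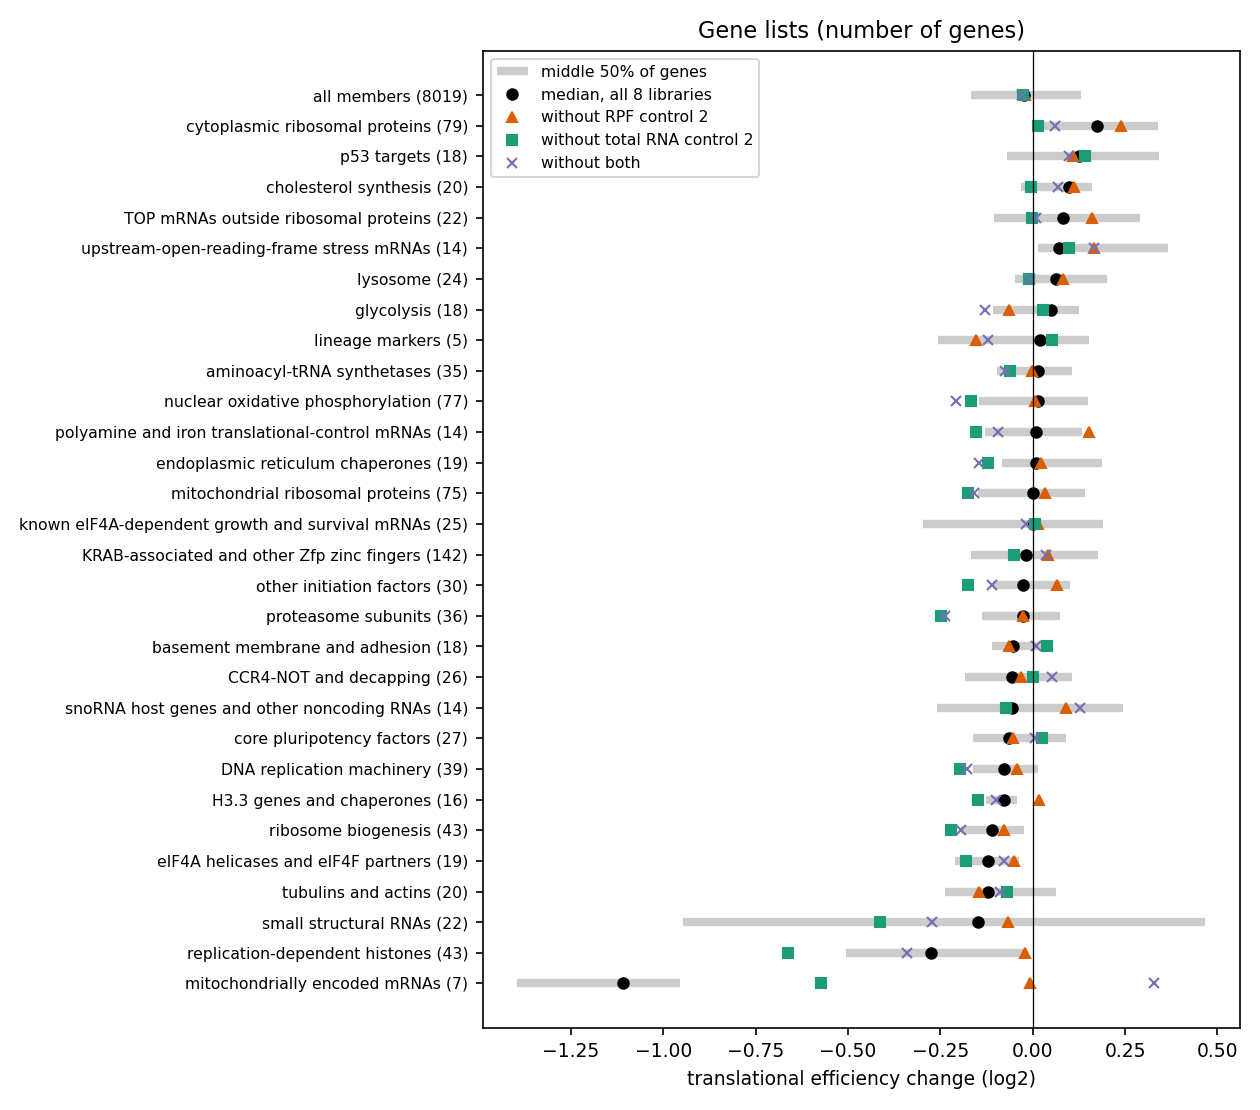
Median efficiency change (log2) of each gene list with at least 3 members, with the middle 50% of its members as a grey bar and the median recomputed without control 2 of either or both assays. Ribosomal protein mRNAs sit at 0.17, histones at -0.28 and mitochondrially encoded mRNAs at -1.11, and these last 2 lists moved most when a control 2 library was left out.

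The title of the series names histone H3.3, whose replacement variant is made by H3f3a and H3f3b. H3f3a had 179 and 199 CPM of footprints in the knockdown against 222 and 290 CPM in the control. Its RNA was 263 and 234 CPM in the knockdown against 232 and 398 CPM in the control, so its footprints were lower in both knockdown libraries while its RNA groups overlapped. The efficiency change was -0.14 ± 0.34. H3f3b had footprints of 547 and 542 CPM against 657 and 639, and RNA of 504 and 467 CPM against 525 and 724. Both were lower in each knockdown library, and the efficiency change was 0.09 ± 0.25. Neither gene's efficiency had a direction that held over the library combinations. Of 16 genes for H3.3 and its chaperones, 13 were below 0 with a median of -0.08. In all combinations 1 was lower (6.25%, against 4.83% of all genes). That gene was Rbbp4 (-0.26 ± 0.22), a histone-binding subunit of several chromatin complexes. Rbbp4 had -0.16 without RPF knockdown 1. The list's median was 0.016 without RPF control 2 and -0.16 without RPF control 1. The chaperone Dek had -0.14 ± 0.21. Usp9x, a deubiquitinase, had -0.01 ± 0.27.

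Replication-dependent histone mRNAs, which end in a stem-loop in place of a poly(A) tail, had a median of -0.28, with 35 of 43 members below 0. Over the 43 members, 3 were lower in all combinations (6.98%, against 4.83% of all genes) and 1 was higher (2.33%, against 4.28%). Hist1h4d, an H4 gene, had 423 and 584 CPM of footprints in the knockdown against 827 and 1029 in the control, with RNA at 317 and 262 against 279 and 323 CPM. Its footprint groups were apart while its RNA groups overlapped, and the change was -0.83 ± 0.29. Hist1h3b, an H3 gene, had -1.29 ± 0.45 and H2afx, the variant that is phosphorylated at DNA breaks, 0.67 ± 0.29. Without RPF control 2 Hist1h3b had -0.81. The list's median was -0.02 without RPF control 2, -0.66 without total RNA control 2 and 0.15 without total RNA control 1, and the members stood a median 0.45 and 0.40 above their means in these RPF and total RNA control 2 libraries. Many histone genes are close copies of each other, and reads may have been assigned to the wrong copy.

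mRNAs with upstream open reading frames that are translated under stress had 12 of 14 members above 0 and a median of 0.07. In all combinations 2, Atf5 and Mdm2, were higher (14.3%, against 4.28% of all genes) and 0 lower. Mdm2 was also a member of the growth and survival list and of the p53 targets below. Atf4, the main transcription factor of the integrated stress response, had 88.4 and 79.0 CPM of footprints against 68.9 and 114, RNA of 131 and 130 CPM against 118 and 183, and an efficiency change of 0.09 ± 0.36. The control 2 libraries were the highest in both measures, so the groups overlapped. Atf5, its relative, was higher in all combinations (0.78 ± 0.39), with footprints of 23.4 and 11.5 CPM against 14.2 and 14.7, which overlapped, and RNA of 17.9 and 16.6 CPM against 27.1 and 26.5, which did not. Cebpb had 0.63 ± 0.40 with overlapping libraries. Atf5 had 0.30 without RPF knockdown 1, and Cebpb had 0.21 without RPF control 2. The median of these mRNAs stayed between 0.04 and 0.19 whichever library was left out.

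Growth and survival mRNAs known to depend on eIF4A had no common direction, with 12 of 25 above 0 and a median of 0.00. In all combinations 2 were higher (8%) and 1 lower (4%), near the background of 4.28% and 4.83%. Mcl1, an anti-apoptotic protein with a short half-life, had 446 and 337 CPM of footprints in the knockdown against 293 and 296 in the control. Its RNA overlapped, at 508 and 491 CPM against 451 and 648, and the efficiency change was 0.51 ± 0.29. It was 0.25 without total RNA control 2 and 0.77 without total RNA control 1. Mdm2, the ubiquitin ligase of p53, had 0.41 ± 0.24 and was the other higher member. Hras had 0.49 ± 0.30 with overlapping libraries. Without RPF knockdown 1 Mdm2 and Hras had 0.21 and 0.21. Of 18 p53 targets 13 were above 0 (median 0.13), with 2 higher (11.1%, against 4.28% of all genes) and 0 lower. Mdm2 was again 1 of these 2, so the counts of the lists that hold it are not independent. The median of the p53 targets was -0.03 without RPF knockdown 1 and 0.28 without RPF knockdown 2. Trp53inp1 (0.86 ± 0.54) and Perp (0.63 ± 0.35), both pro-apoptotic genes of this list, had overlapping libraries. Trp53inp1 had 149.5 CPM of footprints in knockdown 1 and 49.5 in knockdown 2, against 55.4 and 59.6 in the control. Without RPF knockdown 1 the values of Trp53inp1 and Perp were 0.07 and 0.34.

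For 27 core pluripotency factors, which keep the stem cell state, the median change was -0.27 in footprints and -0.27 in RNA, and the median efficiency change was -0.06, with 12 above and 15 below 0 and none apart in all combinations in either direction. For Zfp42 (Rex1), which marks the naive state, footprints were 959 and 820 CPM against 2027 and 2300.5, and 796 and 748 CPM of RNA against 1390 and 1983. Both measures were lower in each knockdown library by a wide margin, and the efficiency change was -0.18 ± 0.29. Nanog had -0.24 ± 0.27, Sox2 -0.07 ± 0.30 and Pou5f1 (Oct4) 0.15 ± 0.25. The footprints of Pou5f1 overlapped, at 863 and 871 CPM in the knockdown against 1045 and 850 in the control. Among 26 genes of CCR4-NOT and decapping, the median was -0.06 and none was apart, with -0.33 ± 0.24 for the helicase Ddx6 and -0.78 ± 0.43 for the scaffold-binding subunit Cnot3. Cnot3 had -0.28 without total RNA control 2 and -1.28 without total RNA control 1, and Ddx6 had -0.18 without RPF control 2. With 1 library left out, the median ran from -0.13 to 0.026 for the pluripotency factors and from -0.18 to 0.00091 for the CCR4-NOT and decapping genes.

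Single genes outside the small RNAs with the largest or most uniform changes belonged to varied processes. Slc25a34, a mitochondrial carrier of the SLC25 family, had 115 and 130 CPM of footprints in the knockdown against 177 and 198 CPM in the control. Its RNA was 18.9 and 19.8 CPM in the knockdown against 13.9 and 12.9 CPM in the control, from 116 to 264 reads per RNA library. Footprints were lower and RNA higher in every knockdown library, the efficiency change was -1.11 ± 0.22 (0.463-fold), and it lay between -1.20 and -1.02 when any 1 library was left out. Nme1, a nucleoside diphosphate kinase, had 87.1 and 97.9 CPM of footprints against 155 and 243, with RNA at 138 and 137 CPM against 140 and 172. Its change was -0.90 ± 0.30, mostly from footprints, and -0.57 without RPF control 2. Gm38393 (-0.70 ± 0.20), which matched no RefSeq entry, the ubiquitin-conjugating enzyme gene Ube2k (-0.67 ± 0.21), the myosin light chain gene Myl12a (-0.61 ± 0.21) and Polr2f, a subunit shared by the nuclear RNA polymerases (-0.60 ± 0.20), were also lower. All 4 had lower footprints and higher RNA in each knockdown library than in each control library. In Polr2f, for example, footprints were 130 and 127 CPM against 182 and 163 and RNA was 117 and 114 CPM against 102 and 103.

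Further genes were lower in all combinations with larger errors. Dynll2, a dynein light chain, had -0.96 ± 0.34, Mettl18, a histidine methyltransferase, -0.89 ± 0.38, and the syntaxin gene Stx4a -0.83 ± 0.36. These moved with 1 library each. Without total RNA control 2 Dynll2 had -0.63 and Stx4a -0.43, and without RPF knockdown 1 Mettl18 had -0.51.

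On the higher side, Cox7a2l, a protein that joins respiratory complexes into supercomplexes, had 54.9 and 58.8 CPM of footprints in the knockdown against 34.6 and 44.4 CPM in the control. Its RNA was 130 and 128 CPM against 136 and 170. The groups were apart in opposite directions, and the change was 0.76 ± 0.25. Otulin, a deubiquitinase of linear ubiquitin chains, had 96.8 and 63.2 CPM of footprints against 36.0 and 19.8, with overlapping RNA at 28.8 and 32.3 against 20.9 and 29.4 CPM. Phc2, a Polycomb protein, had 24.98 and 45.2 CPM of footprints against 11.4 and 6.84, and its RNA was also above control, at 29.3 and 31.6 CPM against 28.1 and 18.0. Their efficiency changes were 1.22 ± 0.42 for Otulin and 1.40 ± 0.45 for Phc2, and they were at least 0.81 and 0.98 when any 1 library was left out. Aspscr1, a tether of glucose transporter vesicles, had 0.68 ± 0.23. Ak4, a mitochondrial adenylate kinase, had 0.94 ± 0.40, Syap1 0.94 ± 0.35 and Tmem110 0.79 ± 0.34, each from footprint or RNA levels under 100 CPM. Without RPF knockdown 1 Ak4 had 0.41 and Tmem110 0.46, and without total RNA control 2 Syap1 had 0.61.

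Energy metabolism had no common direction in nuclear genes. Of 77 nuclear genes of oxidative phosphorylation 41 were above 0, the median was 0.01, and 0 were higher and 3 lower in all combinations, among them the ATP synthase subunits Atp5j (-0.55 ± 0.22) and Atp5j2 (-0.62 ± 0.28, and -0.38 without RPF knockdown 1). The group's median was 0.23 without total RNA control 1 and -0.17 without total RNA control 2. All 7 mitochondrially encoded mRNAs, which are read by the ribosomes of the mitochondrion and not by those that use eIF4A, had negative values, with a median of -1.11. None was apart in all combinations. mt-Cytb had footprints of 147 and 199 CPM in the knockdown, 147 in control 1 and 549 in control 2, and RNA of 255 and 266 CPM in the knockdown, 270 in control 1 and 89.5 in control 2. The control 2 libraries thus stood apart in opposite directions in the 2 assays, and without both the median of the 7 was 0.33.

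Several other lists had medians close to that of all genes with all 8 libraries, but not with each library left out. Mitochondrial ribosomal proteins had a median of 0.00 over 75 genes (1 higher, 1.33%, and 0 lower) and aminoacyl-tRNA synthetases 0.02 over 35 (3 higher, 8.57%, and 0 lower). DNA replication genes had -0.08 over 39 and proteasome subunits -0.03 over 36. Zinc finger genes of the Zfp family had -0.02 over 142 (6 higher, 4.23%, and 9 lower, 6.34%). Of all genes 4.28% were higher and 4.83% lower. Cholesterol synthesis genes lay farther from the median of all genes, with a median of 0.10 and 14 of 20 above 0. In this list 2 were higher (10%) and 1 lower (5%) in all combinations. Lss (0.35 ± 0.23, and 0.20 without RPF control 2) was among the higher. With 1 library left out, the medians ran from -0.17 to 0.14 for mitochondrial ribosomal proteins, -0.12 to 0.15 for the synthetases, -0.23 to 0.09 for DNA replication, -0.25 to 0.20 for the proteasome, -0.08 to 0.04 for the Zfp family and -0.03 to 0.20 for cholesterol synthesis. Of 14 polyamine and iron genes under translational control, 7 lay on each side of 0, with Oaz2, an ornithine decarboxylase antizyme (0.35 ± 0.23, and 0.23 without RPF control 1), higher and the iron importer Slc11a2 (-0.32 ± 0.23) lower.

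Among the genes apart in all combinations, small noncoding RNAs had the highest and the lowest value, although a fragment from such an RNA need not be a ribosome footprint. Of 30 genes of that class 3 were higher (10%) and 5 lower (16.7%) in all combinations, against 4.28% and 4.83% of all genes. In limma's test 9 of the 30 had an unadjusted p under 0.05, against 0.96% of all genes. Rnu3a, a U3 small nucleolar RNA of rRNA processing, had 468 and 296 CPM of footprint reads against 412 and 358. Its total RNA was 346 and 298 CPM in the knockdown against 1220 and 973 in the control. The 1.72 ± 0.32 came from RNA alone, since its footprint reads overlapped between groups. The Y RNAs Rny1 (-1.83 ± 0.66) and Rny3 (1.36 ± 0.60) had opposite signs, and the small nucleolar RNA Snord104 had -1.08 ± 0.40. Rny1 and Rny3 had -1.05 and 0.55 without RPF knockdown 1. The 15 pseudogenes had a median of 0.17, with 3 higher (20%) and 1 lower (6.67%) in all combinations. Their reads cannot be told with certainty from those of their parent genes.

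The 2 most negative values of all 8019 genes were those of Mir291a and Mir292, neighbours in the miR-290 to miR-295 cluster that gives embryonic stem cells most of their microRNAs. Mir291a had 55.6 and 48.3 CPM in the footprint libraries of the knockdown and 139 and 513 CPM in those of the control, with total RNA at 14.5 and 13.9 CPM against 10.7 and 12.2. Mir292 had 9.68 and 38.7 CPM against 45.1 and 150, with total RNA between 12.2 and 15.8 CPM in all 4 libraries. The efficiency changes were -2.63 ± 0.63 and -2.30 ± 0.83. Control 2 was the highest footprint library for both, and without it Mir291a had -1.70 and Mir292 -1.45. Mir292 had -1.36 without RPF knockdown 1. Mir291a passed the threshold only in the likelihood ratio test and when RPF control 1 was left out, and Mir292 only with a replicate block within each assay, same-numbered or crossed in total RNA. The mature RNAs that RefSeq lists for these 2 genes (GRCm38.p6, plus strand, chr7:3218932-3218953, chr7:3218968-3218989 and chr7:3219200-3219221) are shown because they lie within the hairpins behind these values, with the seed, bases 2 to 8, in capitals.
miR-291a-5p: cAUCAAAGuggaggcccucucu
miR-291a-3p: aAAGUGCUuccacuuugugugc
miR-292a-5p: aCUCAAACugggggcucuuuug
The reference used here had no entry for the other arm of Mir292, so that arm is not shown. The 3 seeds shown differ from each other, and AAGUGCU is the seed known for the cell cycle role of this cluster. The tables do not tell the arms of a hairpin apart.

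What the mRNAs shared beyond the rule was looked for in their sequence and level. Of the 7909 protein-coding genes 6445 (81.5%) matched a RefSeq start, and the GC share of the first 50 bases gave 5 equal groups with median efficiency changes of -0.06, -0.07, 0.00, -0.03 and 0.02 from lowest to highest. Across genes Pearson r was 0.06. It was 0.18 without total RNA control 2, -0.0020 without RPF control 2 and 0.13 without both. In RPF knockdown 1 the median deviation from the mean over the footprint libraries rose over these groups, from -0.12 to 0.06. The r without that library is not given here. The 234 genes with GGCGGCGGC in those bases on the sense strand (3.63% of the matched genes, and 1.30% of all 27025 in the table) had a median of -0.02 and those without it -0.03. Without total RNA control 2 these medians were 0.10 and -0.03, and without RPF control 2 they were -0.04 and -0.02. By RNA level the r was -0.02. Genes just above the 10 CPM limit, at 10 to 12 CPM in the lower of the 2 tables, had a median of 0.00 and an SD of 0.32, and those just below it, at 8 to 10 CPM, 0.03 and 0.32.

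The mean footprint to RNA ratio of a gene over all 8 libraries went with its efficiency change. Both values are built from the same libraries, as the mean of and the difference between the knockdown and control ratios. An order arises whenever the spread of the ratio over genes differs between the conditions, so it is no separate trait of the mRNAs. In 5 equal groups of protein-coding genes from the lowest to the highest ratio, the median changes were 0.09, -0.01, -0.05, -0.05 and -0.09. In the lowest group 6.64% of genes were higher and 2.40% lower in all combinations, and in the highest 1.77% were higher and 6.26% lower. The gene lists did not all follow this order. The 3 lists with the highest median log2 ratio were histones (0.75), nuclear oxidative phosphorylation (0.45) and glycolysis (0.45), with median efficiency changes of -0.28, 0.01 and 0.05. The 3 with the lowest were the polyamine and iron genes (-1.01), the Zfp family (-0.70) and p53 targets (-0.62), with 0.01, -0.02 and 0.13. The median log2 ratio of all protein-coding genes was -0.23. The pattern moved with RPF knockdown 1. The log2 ratio had an SD over genes of 0.56 to 0.57 with that library as numerator, against 0.71 to 0.76 in all other pairings of libraries of the same condition. Without RPF knockdown 1 the order was reversed, with medians of -0.07 in the lowest and 0.02 in the highest group, and without RPF knockdown 2 it was steeper, at 0.24 and -0.20.

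**Figure D5:**
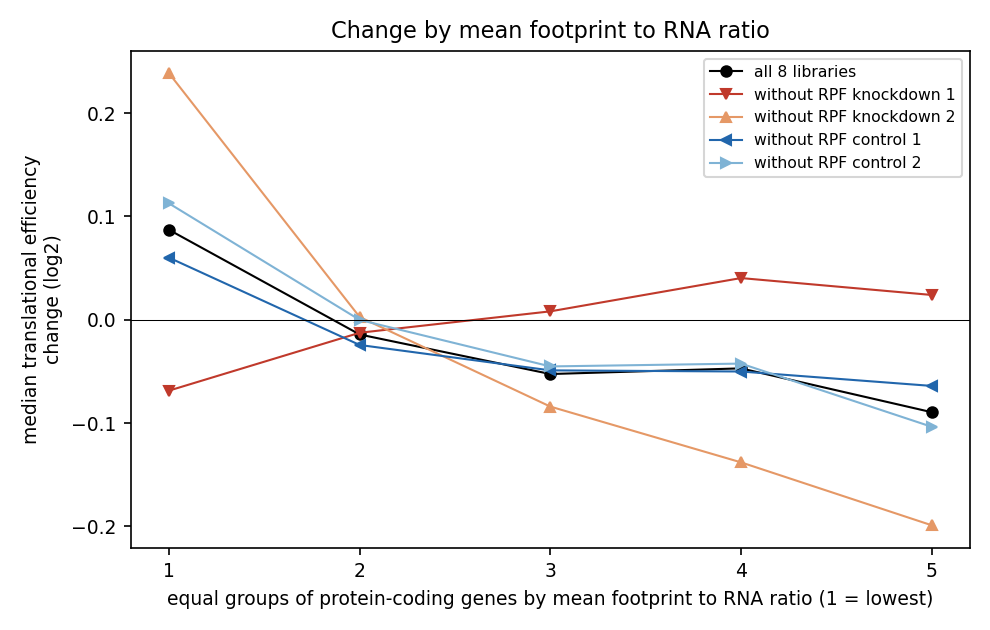
Median efficiency change (log2) of 5 equal groups of the protein-coding genes ordered by mean footprint to RNA ratio, with all 8 libraries (black) and with each footprint library left out. The medians run from 0.09 down to -0.09 with all libraries, and upward from -0.07 to 0.02 without RPF knockdown 1.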

How the data were processed

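The footprint table (12818 genes) and the total RNA table (13436 genes) are as deposited by the authors, and their library columns hold signal values on the CPM scale: reads per gene divided by an effective library size, per the file headers and the values. In each column all values were whole multiples, within 0.01 read, of the value of 1 read. The tables were normalized separately, so an efficiency change is a difference between 2 differences, each within its own table. Tools listed in the submitters' processing notes, without their roles, are edgeR 3.26.8, HTSeq 0.11.2, TopHat2 2.1.1 and Bowtie 1.2.3, with the build mm9. Reads of 50 bp came from TruSeq Ribo Profile libraries after Ribo-Zero Gold, per the labels' protocols.

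Values were analysed as log2(CPM + 1), which understates changes of low genes. limma 3.58.1 (R 4.3.3) fitted the interaction of assay and knockdown over all 8 libraries, with a trended variance prior, 4 residual degrees of freedom and a two-sided test adjusted by Benjamini-Hochberg at 0.05 over the 12358 genes that passed filterByExpr of edgeR 4.0.16 (minimum count 10, minimum total 15) in each table. The script was tested on simulated data. Reads read back from the tables went into edgeR and DESeq2 1.42.0 as alternatives. RPF control 2, whose value of 1 read lies too near 0.1 for an automatic check, was left out. This left 1 control footprint library, without a replicate. Within 1 assay, an exact test of 1 gene with 2 libraries against 2 cannot go below p = 0.333. Where replicates are not separate cultures, p-values measure technical spread only.

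The members, the 31 gene lists and the tests were chosen with earlier results of these data known. The rule for named genes takes Eif4a2 and 12 others always, the 12 genes with the largest change in each direction among those apart in all combinations, the 8 with the smallest p in each direction, and up to 3 with the smallest p per list; small RNAs and pseudogenes are counted as groups, with single small RNAs as examples. Results for some genes the rule takes are not reported here. Genes outside that rule (Wdr95, Eef2, Eif3h, Dnajc1, Cnr1, and Rps15a, Rps10 and Rpl35a with their starts) were chosen after their values were seen. Biotypes were matched by symbol to RefSeq for 7987 members.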

Additional observations from a re-analysis of the deposited data

How the results depend on the processing

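The count of genes that passed limma's test, 0 in the main analysis, stayed at 0 with other pseudocounts (0.1 and 5), other scalings of the columns, no filter on low values, a fit over the members only, a robust variance prior, array weights, edgeR's quasi-likelihood test and DESeq2. When 1 library was left out, 0 to 1 genes were called higher (Neat1, without RPF knockdown 2) and 0 to 1 lower (Mir291a, without RPF control 1). Without RPF control 2, 3 genes were called as lower by the likelihood ratio test of edgeR (Dnajc1, Cnr1 and Mir291a). Each fit without 1 library left a single library in 1 group. For Neat1 the knockdown footprints were then those of knockdown 1 alone, at 96.9 CPM. Neat1 had 4.29 CPM in RPF knockdown 2 and 9.56 and 10.6 CPM in the RPF control. With the replicate number as a replicate block over all libraries, or by culture, 0 genes were called. A replicate block within each assay gave 1 gene called as lower (Mir292). Over the 6 pairs of groups, the deviations of same-numbered libraries correlated at r = -0.32 (total RNA knockdown with control) to 0.21 (footprint with total RNA control), with 0.14 between knockdown and control footprints and 0.11 between footprints and total RNA of the knockdown. With 2 libraries per group this does not settle whether same-numbered libraries share a culture. With a crossed replicate block in total RNA, chosen after seeing the data, 1 gene was called as lower.

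The share of genes apart in all library combinations moved with the number of combinations. Leaving out 1 library, which leaves fewer combinations to meet, gave 6.11% to 19.7% higher and 6.77% to 21.6% lower, and leaving out both control 2 libraries, also chosen after seeing the data, gave 22.1% and 28.1%. At a mean of at least 50 CPM, 2.84% were higher, and with columns rescaled to the same total 6.04% were higher and 3.35% lower.

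Of 74 named genes 61 kept their sign under every alternative run. This count is no separate test of robustness. A gene apart in all library combinations cannot change sign when libraries are left out, and part of the naming rule chose such genes. The fits with array weights, a robust variance prior, the members only or a replicate block returned the same efficiency changes as the main fit. All named genes whose sign changed had overlapping libraries. With 1 library left out the sign changed for Atf4 (-0.27 to 0.45), Eif4a1 (-0.35 to 0.18), Eif4a2 (-0.89 to 0.13), Eif4a3 (-0.29 to 0.04), H3f3a (-0.53 to 0.25), H3f3b (-0.14 to 0.33), Nanog (-0.50 to 0.030), Rps26 (-0.65 to 0.16), Sox2 (-0.33 to 0.19), Usp9x (-0.24 to 0.22) and Zfp42 (-0.43 to 0.079). Without both control 2 libraries it changed for H3f3b (-0.16), Pou5f1 (-0.060), Rps26 (0.00015) and mt-Cytb (0.27). In edgeR's quasi-likelihood and likelihood ratio fits and in DESeq2, in that order, it changed for Rps26 (0.18, 0.18 and 0.18), Eif4a3 (0.017, 0.017 and 0.012) and H3f3a (0.11, 0.11 and 0.10). Usp9x was 0.018 with columns centred on the members' median and 0.045 with columns of equal total. The cause was not tested. The grouping of genes by protein length planned for the mRNA features was not run. Depth limits the least abundant members most: those whose lower mean of the 2 tables was 10 to 12 CPM had a median SE of 0.33, against 0.27 over all members.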
